A study of Sus scrofa with 9 samples.

Results

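MicroRNA loci were the short non-coding positions of a table of nascent transcription in pig heart. They were the positions with an NR_ identifier (RefSeq non-coding RNA) that mapped to a pig symbol starting with MIR or spanned at most 150 bp, with a mean of at least 0.5 RPKM (reads per kilobase of annotated span, scaled to the library total) over all 9 libraries. The table lists 4882 positions, of which 166 had an NR_ identifier, and 148 of those met the rule on name or span. Reads fell on 61 of the 148, and 57 passed the filter on low values: 55 with a MIR symbol and 2 without a symbol, NR_038586 and NR_038591. The other 4 positions with reads, MIR101-2, MIR30E, MIR128-1 and MIR326, had means of 0.38 to 0.43 RPKM from 1 or 2 reads each. MIR504 lay just inside the filter at 0.52 RPKM, from 1 read. The remaining 87 candidates held no read, which allows up to 0.101 RPM (reads scaled to the library total as in RPKM, but not to the span) over the 29591382 reads of all libraries (3 reads, counting error only).

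The 3 groups were myocardium labelled healthy, border zone and ischemic, 1 library of each from the same 3 female farm pigs. Every pig had a coil in the distal left anterior descending (LAD) artery, and the hearts were sampled after 24 h, so the healthy samples came from hearts that also held an infarct. Minced tissue was treated with collagenase, nuclei were extracted, and nascent RNA was labelled in a nuclear run-on and sequenced (GRO-seq). The 3 pigs are separate animals, and replicates 1 to 3 stand for pigs 1 to 3.

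A microRNA is cut out of a long primary transcript. DROSHA and DGCR8 crop the hairpin in the nucleus, DICER1 trims it, and an Argonaute protein carries the mature strand to target messages. GRO-seq is designed to read RNA that an engaged polymerase is making. The values below are therefore read as transcription over the hairpin and not as the amount of mature microRNA. Whether other RNA added to the reads was not tested. In heart, miR-1 and miR-133 are classic muscle microRNAs, miR-208b is carried by a myosin gene, miR-21 is known from injured and fibrotic myocardium, and the miR-29 family is known for targeting messages of collagens and other matrix proteins.

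The libraries held 2730083 to 6531658 reads in healthy, 2187977 to 7005976 in the border zone and 883656 to 2134087 in ischemic myocardium. The pooled healthy depth was 3.05 times the pooled ischemic depth. Heart muscle markers summed to 292 to 523 RPKM in healthy, 140 to 252 in the border zone and 67.6 to 209 in ischemic libraries, with 8 of 12 fixed markers in the table and 4 of them lower in ischemic than in healthy myocardium by the test described below. Leukocyte markers summed to 0.461 to 1.92, 8.34 to 16.9 and 28.4 to 41.2 RPKM, with 6 of 10 markers in the table, 3 of the 4 tested higher in ischemic and 2 higher in border zone than in healthy myocardium. S100A8, S100A9 and S100A12 were at 0 in all healthy libraries. CD163 was at 0 in all libraries, over a listed span of only 466 bp, so its value does not describe the whole gene. Sums for fibroblast and matrix markers ran from 6.13 to 9.28, 9.06 to 11.2 and 11.5 to 13.6 RPKM, for endothelium from 3.02 to 3.88, 3.53 to 4.48 and 5.49 to 6.52, and for smooth muscle from 1.49 to 1.71, 1.96 to 2.08 and 2.97 to 3.29. Single markers did not all follow their sums: from healthy to ischemic myocardium DCN went from 2.12 ± 0.812 to 1.39 ± 0.538 RPKM and ACTA2 from 0.613 ± 0.106 to 0.419 ± 0.153. In bulk tissue fewer cells of a type and less RNA per cell cannot be told apart, and the part of these marker changes in the results below was not tested.

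Reads at microRNA hairpins were few. The 57 loci, 79 to 112 bp long as listed, took 1311 reads in all, with a median of 9 reads per locus. A total of 28 loci had at least 10 reads, 7 had at least 30, and the 4 highest, MIR320, NR_038586, MIR208B and MIR1, held 685 reads or 52.3%. Together the loci took 46.1 to 47.6 RPM in healthy, 33.8 to 48.0 in the border zone and 32.8 to 56.6 in ischemic libraries, ranges that overlap. Fewer loci had a read in the shallow ischemic libraries: 18 to 29 loci in a healthy, 23 to 33 in a border zone and 12 to 18 in an ischemic library. Over a group, 45, 45 and 27 loci had a read, 30 had none in ischemic and 12 had none in healthy myocardium. A single read at a hairpin of 80 bp was worth 1.91 to 4.58 RPKM in healthy, 1.78 to 5.71 in the border zone and 5.86 to 14.1 in ischemic libraries. Of the 195 nonzero values of the 57 loci, 60 were exactly 3 reads, 30 were 1 read and 22 were 2 reads, so reads are not known to be separate molecules. In ischemic replicate 3, 9 of the 12 loci with a read held exactly 3, among them MIR29B-1, MIR29A, MIR142 and MIR145. The intervals and bounds below count each read as separate.

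**Figure D1:**
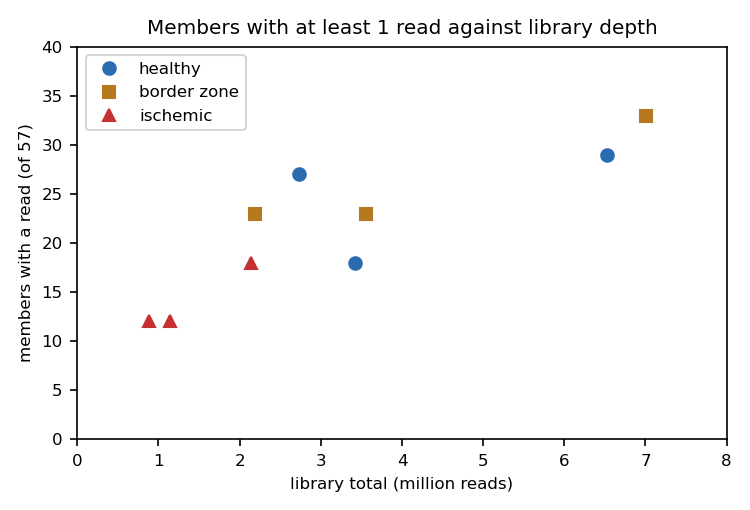
Number of microRNA loci (of 57) with at least 1 read, against the library total, for the 9 libraries (circles healthy, squares border zone, triangles ischemic). The 3 ischemic libraries lie at the shallow end with 12 to 18 loci, and the deepest border zone library has 33.

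Differences between groups were tested with limma on log2(RPKM + 0.1) in 1 fit of all 9 libraries over the 2384 table positions that met the filter, and a locus passed at an adjusted p under 0.05 (Benjamini-Hochberg over all 2384). Errors of log2 differences are standard errors. A group with no read in any library has the same log value throughout and adds no spread to the standard error. The size of the log2 difference then depends on the pseudocount. Both limits hold below for MIR1, MIR29C and MIR219A in ischemic and for MIR29B-1 in healthy myocardium. MIR1 encodes miR-1, among the most abundant microRNAs of cardiac muscle (NR_035375, susScr3 chr17:69285393-69285500, minus strand). It held 4, 10 and 20 reads in the healthy, 1, 30 and 1 in the border zone and 0, 0 and 0 in the ischemic libraries of pigs 1 to 3. In RPKM these were 13.7, 27.3 and 28.6 in healthy and 2.63, 40.02 and 4.27 in border zone myocardium. Every healthy and border zone library held reads and no ischemic library did. Ischemic against healthy, MIR1 fell by 7.79 ± 0.89 on the log2(RPKM + 0.1) scale (± SE, limma, adjusted p = 0.00124), and against border zone it fell by 6.29 ± 0.89 (limma, adjusted p = 0.0316). The difference from border zone no longer passed without any single healthy library, border zone replicate 3 or ischemic replicate 3 (adjusted p = 0.0527 to 0.0847), nor under other pseudocounts, without the filter or with limma-voom on the recovered reads (0.0576 to 0.43). Pooled over a group, with a floor of 3 reads where a group held none, MIR1 was at least 3.72-fold lower in ischemic than in healthy and at least 3.48-fold lower than in border zone myocardium. Each such bound takes the reads of the other group as exact and is not an exact interval. At the healthy rate the ischemic libraries would have held 11.1 reads. Without ischemic replicate 1, which has the most reads of the ischemic libraries, the bounds were 1.81-fold and 1.69-fold, and without border zone replicate 2 no bound against border zone could be given. The border zone value did not pass against healthy (log2 difference -1.50 ± 0.89, limma adjusted p = 0.383), and its pooled ratio of 0.937 (exact 95% interval 0.560 to 1.57) rested on border zone replicate 2, which held 30 of the 32 reads. Without that library the ratio was 0.13 (0.0151 to 0.507) and the border zone value was lower by the test (limma, adjusted p = 0.0104).

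MIR133A-1 encodes miR-133a, a partner of miR-1 in muscle, and lies 10740 bp from MIR1 on the same strand (NR_035374, chr17:69274653-69274755). It held 4, 0 and 5 healthy, 0, 4 and 2 border zone and 0, 0 and 0 ischemic reads. Healthy and ischemic values overlapped at 0. The log2 difference of ischemic from healthy was -4.48 ± 2.18 (limma, adjusted p = 0.164), and 9 healthy reads are too few for a bound on the ischemic rate. Without healthy replicate 2, which held no read, the difference passed (log2 -6.71 ± 1.78, limma adjusted p = 0.0489) and the ischemic rate was at least 1.35-fold lower. The hairpins of MIR1 and MIR133A-1 together held 43 healthy, 38 border zone and 0 ischemic reads, at least 4.70-fold lower in ischemic than in healthy and at least 4.13-fold lower than in border zone myocardium. Without ischemic replicate 1 these bounds were 2.29-fold and 2.01-fold. Border zone replicate 2 held 34 of the 38 border zone reads, and without it the second bound was gone.

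MIR208B (NR_038551, chr7:81071323-81071402, minus strand) lies inside MYH7, the gene of the beta cardiac myosin heavy chain, on the same strand (NM_213855, chr7:81066283-81087123). It held 19, 15 and 64 healthy, 16, 25 and 7 border zone and 2, 0 and 0 ischemic reads, or 88.1, 55.4 and 124 RPKM, 57.04, 45.2 and 40.5 RPKM, and 11.9, 0 and 0 RPKM. The ischemic values lay below all others, while healthy and border zone values overlapped. Ischemic against healthy, MIR208B fell by 7.43 ± 1.66 (log2, limma, adjusted p = 0.0156). The log2 difference from border zone, -6.58 ± 1.66, did not pass the test (limma, adjusted p = 0.115), except without ischemic replicate 1 (adjusted p = 8.32e-05). The pooled rate was 16.1-fold lower in ischemic than in healthy (exact 95% interval 4.33 to 134) and 7.83-fold lower than in border zone myocardium (2.05 to 66.5). Both ischemic reads came from replicate 1, and without it the folds were at least 5.21 and at least 2.54. Border zone stood at 0.488 of the healthy pooled rate (0.338 to 0.696), and at 0.682 (0.430 to 1.09) without healthy replicate 3, and the log2 difference of -0.84 ± 1.66 did not pass (limma, adjusted p = 0.829).

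**Figure D2:**
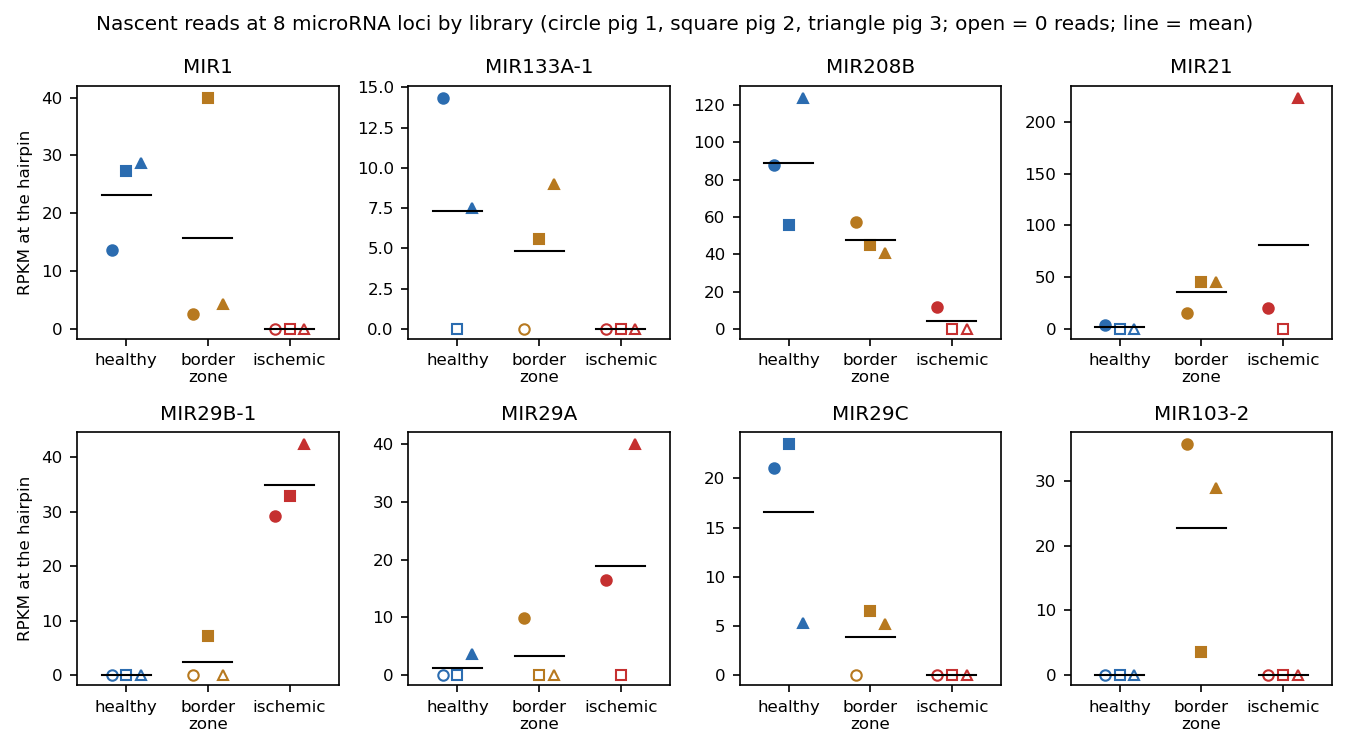
RPKM at the hairpins of 8 microRNA loci (vertical axes, each with its own scale) in the 9 libraries by group, with pigs 1 to 3 as circle, square and triangle, open symbols for 0 reads and a line at the group mean. MIR1 and MIR29C are at 0 in all 3 ischemic libraries, MIR29B-1 is at 0 in all 3 healthy libraries and at 29.3 to 42.4 RPKM in ischemic ones, and the highest MIR21 value, 223.8 RPKM, is in the ischemic library of pig 3.

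Set against its host gene, the hairpin took a smaller share of the pooled reads in ischemic myocardium. MYH7 itself had 151 ± 50.01 RPKM in healthy, 66.1 ± 21.1 in the border zone and 61.6 ± 34.2 in ischemic myocardium (mean ± SD, n = 3 each), and its log2 difference of ischemic from healthy was -1.43 ± 0.50 (limma, adjusted p = 0.0647). The hairpin took 98 of the 36503 reads of MYH7 in healthy, 0.269% (exact 95% interval 0.218 to 0.327), 48 of 19743 in border zone, 0.243% (0.179 to 0.322), and 2 of 5594 in ischemic myocardium, 0.0358% (0.00433 to 0.129). At the healthy share the ischemic libraries would have held 15.0 hairpin reads. Healthy replicate 3 held 64 of the 98 healthy hairpin reads, and without it the healthy share was 0.158% and that number 8.83. Per library, the ratio of hairpin RPKM to MYH7 RPKM was 0.426, 0.405 and 1.13 in healthy, 0.963, 0.503 and 0.821 in the border zone and 0.183, 0 and 0 in ischemic myocardium. The 3 ischemic ratios were the 3 lowest, but ischemic replicate 3 held only 476 MYH7 reads. The hairpin shares of ischemic replicates 1 to 3 had exact 95% intervals of 0.00841 to 0.2505%, 0 to 0.1648% and 0 to 0.772%. All 3 intervals reached the shares of healthy replicates 1 and 2, 0.1615% and 0.1534%. Only that of ischemic replicate 3 reached the 0.428% of healthy replicate 3. A 2-sided exact permutation test gave p = 0.1 for ischemic against healthy and against border zone, the smallest value that 3 against 3 libraries allow, and p = 0.8 for border zone against healthy. Benjamini-Hochberg adjustment over the 6 such ratio tests run here, 3 for this pair and 3 for NR_038586 with its host, gave 0.3 for the first 2.

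**Figure D3:**
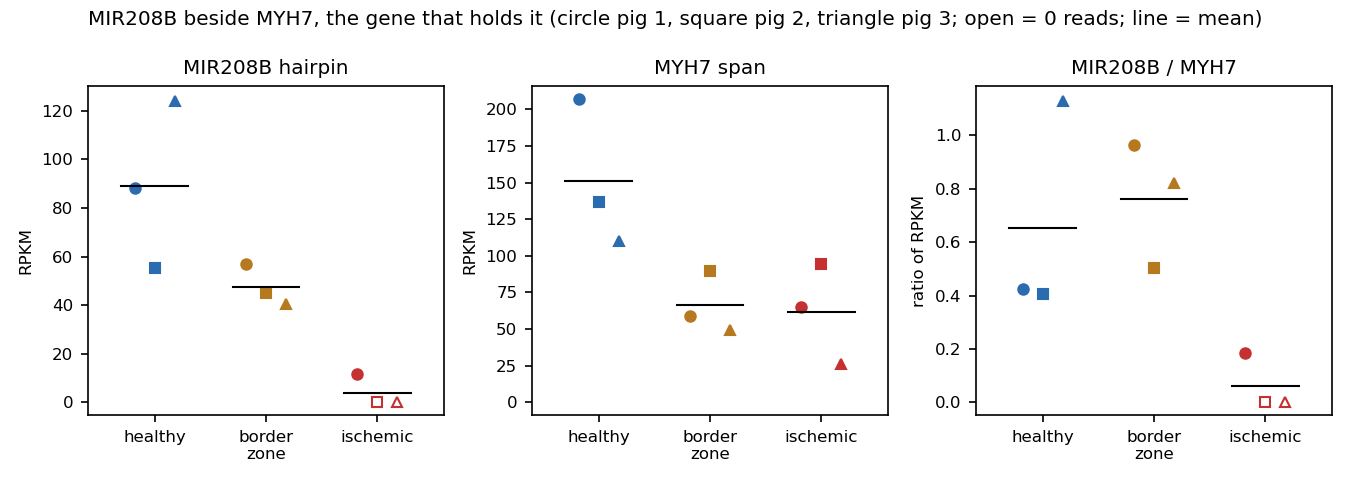
RPKM of the MIR208B hairpin, RPKM of the whole MYH7 span and their ratio (vertical axes) in the 9 libraries by group, with pigs 1 to 3 as circle, square and triangle, open symbols for 0 reads and a line at the mean. The ischemic ratios, 0.183 and 2 at 0, lie below all healthy and border zone ratios, while MYH7 stays between 25.9 and 94.1 RPKM there.

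MIR21 encodes miR-21 (NR_038508, chr12:37340385-37340476, plus strand). It held 1, 0 and 0 healthy, 5, 29 and 9 border zone and 4, 0 and 18 ischemic reads, or 4.03, 0 and 0 RPKM, 15.5, 45.5 and 45.2 RPKM, and 20.6, 0 and 223.8 RPKM. All border zone values lay above all healthy ones, whereas the ischemic values ran from 0 to the highest of the 9. Neither difference passed the test: the border zone value was 6.52 ± 2.69 above healthy on the log2 scale (limma, adjusted p = 0.212) and the ischemic value 4.49 ± 2.69 (limma, adjusted p = 0.251). Without ischemic replicate 2, which held no MIR21 read, the ischemic difference passed (limma, adjusted p = 0.0222). With limma-voom on the recovered reads, a test that weights values by their counts and was added after the data were seen, both passed, with log2 differences of 4.20 ± 1.17 for border zone (adjusted p = 0.0286) and 3.87 ± 1.31 for ischemic myocardium (adjusted p = 0.035). The pooled rates were 0.0788 RPM in healthy, 3.37 in the border zone and 5.29 in ischemic myocardium, ratios to healthy of 42.8 (exact 95% interval 7.28 to 1730) and 67.1 (10.9 to 2770). A single healthy read sets both ratios. The ischemic ratio was 15.5 (1.53 to 763) without ischemic replicate 3, 113 without ischemic replicate 1, 32.6 without healthy replicate 3, and at least 17.6 without healthy replicate 1, which held the read. The border zone ratio was 20.8 without healthy replicate 3 and at least 11.2 without healthy replicate 1.

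The MIR29 loci lie on 2 chromosomes, and the 2 loci that passed the test in ischemic against healthy myocardium moved in opposite directions. MIR29B-1 (NR_038491, chr18:19034822-19034902, plus strand) held 0 reads in each healthy library, 0, 4 and 0 in the border zone and 5, 3 and 3 in ischemic libraries, or 29.3, 32.9 and 42.4 RPKM in the last. Every ischemic value lay above every other. MIR29B-1 rose in ischemic against healthy myocardium by 8.43 ± 1.47 (log2, limma, adjusted p = 0.00599), and the pooled rate was at least 11.2-fold higher, or at least 5.43-fold without healthy replicate 3. Against border zone the log2 difference of 6.37 ± 1.47 did not pass (limma, adjusted p = 0.0988), with a pooled ratio of 8.43 (exact 95% interval 2.50 to 36.3) and at least 5.06 without border zone replicate 2, which held all 4 border zone reads. That comparison did pass without border zone replicate 2 (limma, adjusted p = 7.15e-06), with a pseudocount of 5 RPKM (0.0337) and with limma-voom (0.0365).

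MIR29A lies 403 bp downstream of MIR29B-1 on the same strand (NR_038524, chr18:19035225-19035310). It held 0, 0 and 2 healthy, 3, 0 and 0 border zone and 3, 0 and 3 ischemic reads. The groups overlapped at 0, and the ischemic value was 3.60 ± 2.77 above healthy on the log2 scale (limma, adjusted p = 0.373). Together the hairpins of MIR29B-1 and MIR29A held 2, 7 and 17 reads in healthy, border zone and ischemic myocardium, an ischemic to healthy ratio of 25.9 (exact 95% interval 6.16 to 231) and an ischemic to border zone ratio of 7.44 (2.93 to 21.2). These were 8, 3 and 6 reads in the 3 ischemic libraries, so each library had some. Both healthy reads came from replicate 3, and without it the ratio to healthy was at least 8.39.

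MIR29C, the third locus (NR_038509, chr9:148552997-148553084, plus strand), held 5, 7 and 3 healthy, 0, 4 and 1 border zone and 0, 0 and 0 ischemic reads. In RPKM the healthy values were 21.1, 23.5 and 5.28, and all lay above the ischemic ones. Ischemic against healthy, MIR29C fell by 7.12 ± 1.49 (log2, limma, adjusted p = 0.0125), opposite in sign to MIR29B-1. The pooled bound was weak, at least 1.64-fold lower and at least 2.70-fold without healthy replicate 3, and no bound could be given without ischemic replicate 1. With limma-voom the call was lost (log2 -1.65 ± 0.97, adjusted p = 0.215). Border zone stood at 0.332 of the healthy pooled rate (exact 95% interval 0.0944 to 0.961), with a log2 difference of -3.19 ± 1.49 (limma, adjusted p = 0.264). The ratio was 0.147 without border zone replicate 2 and 0.201 without healthy replicate 3, and its interval reached past 1 without border zone replicate 1 or 3 or healthy replicate 1 or 2.

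A further 2 loci passed the test in some comparison. MIR103-2, a hairpin of the broadly expressed miR-103 (NR_038533, chr17:36149787-36149866, minus strand), held 10, 2 and 5 reads in the border zone libraries and none in the other 6. It rose in border zone against healthy myocardium by 7.29 ± 0.79 (log2, limma, adjusted p = 0.00195) and was lower in ischemic than in border zone myocardium by the same amount (limma, adjusted p = 0.0173). MIR103-2 met the filter on low values only through the border zone, so these tests are not independent of its selection. The other 6 libraries share the same log value and add no spread to the standard error. The border zone rate was at least 5.64-fold above healthy, 3.22-fold without border zone replicate 1, 11.1-fold without border zone replicate 2 and 2.74-fold without healthy replicate 3, each as a lower bound. Both MIR103-2 calls were lost with a pseudocount of 5 RPKM (adjusted p = 0.103 and 0.133) and with limma-voom (0.0551 and 0.469). The second was also lost with a pseudocount of 1 RPKM (0.0568) and without healthy replicate 3, border zone replicate 1 or 3, or ischemic replicate 3 (0.0537 to 0.0674). MIR219A, whose microRNA is best known from oligodendrocytes (NR_038605, chr7:29752701-29752783, minus strand), held 2, 3 and 4 healthy, 0, 3 and 6 border zone and no ischemic reads. Ischemic against healthy, it fell by 6.50 ± 1.77 (log2, limma, adjusted p = 0.0301). That call did not hold when any 1 of the 6 libraries compared was left out (adjusted p = 0.0598 to 0.084), with a pseudocount of 5 RPKM (0.117) and with limma-voom (0.437). With 9 healthy reads no bound on the ischemic rate was possible.

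Counted over all loci, few passed. Of the 57 loci 1 was higher and 4 were lower in ischemic than in healthy myocardium, against 18.5% higher, 9.1% lower and 27.6% in either direction among the 2384 positions tested. In border zone against healthy 1 was higher and 0 lower, against 5.79% and 0.21% of all positions and 6% in either direction. In ischemic against border zone 0 were higher and 2 lower, against 0.168% and 0.965%, with 1.13% in either direction. At an unadjusted p under 0.05 the counts were 7, 6 and 9 of the 57 loci, beside 40.5%, 21.4% and 15.6% of all positions tested. With limma-voom the counts at an adjusted p under 0.05 were 6, 1 and 1, beside 31.4%, 12.4% and 3.86% of all positions tested. The median log2 difference of the 57 loci was -1.78, -0.25 and -1.74 in the 3 comparisons, beside 0.21, 0.22 and -0.04 over all positions tested. A locus at 0 reads has the same log value at any depth, while 1 read is worth more RPKM in a shallow library, and the part of depth in these medians was not tested. Scaling the libraries to the same median moved the median of all positions to 0.00 and -0.03 in the first 2 comparisons and left every microRNA call as it was in ischemic against healthy. The first 2 comparisons share the healthy libraries, and the first and last share the ischemic ones.

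**Figure D4:**
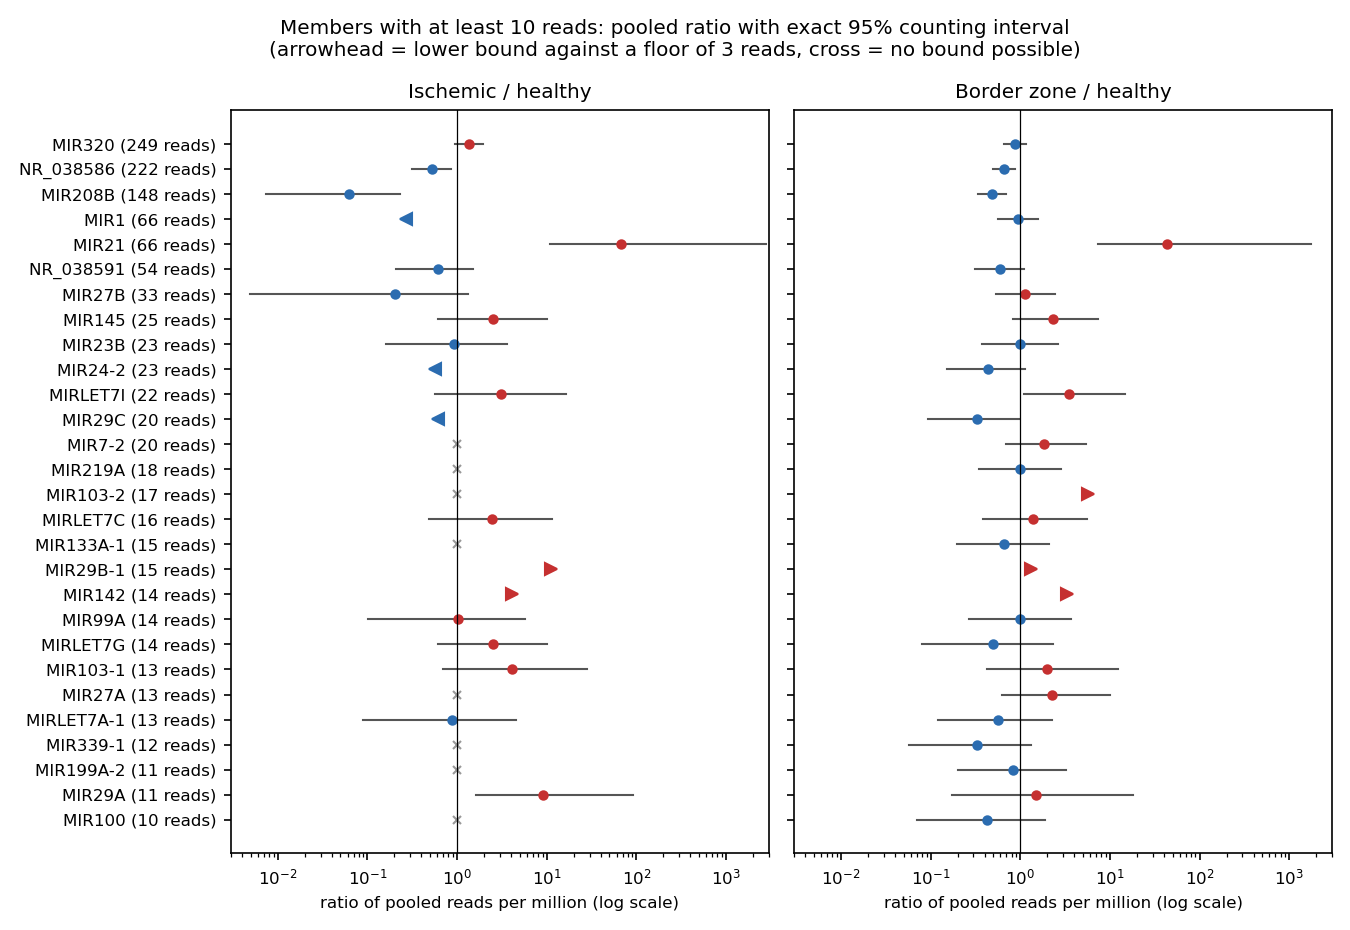
Ratio of pooled RPM to healthy myocardium (log axis) for the 28 loci with at least 10 reads, ischemic on the left and border zone on the right, with exact 95% counting intervals as lines, arrowheads for bounds against a floor of 3 reads and crosses where no bound is possible. In the ischemic panel the intervals of MIR208B and NR_038586 and the bounds of MIR1, MIR24-2 and MIR29C lie below 1. The intervals of MIR21 and MIR29A and the bounds of MIR29B-1 and MIR142 lie above it, and most other intervals span 1. Bounds take the reads of the other group as exact.

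By function, the muscle list held 5 members, MIR1, MIR133A-1, MIR208B, MIR499 and MIR486-1, out of 8 positions in the table. MIR133B, MIR206 and a second position of MIR486-1 on an unplaced scaffold held no read. The 5 took 28, 25 and 97 reads in healthy, 17, 60 and 10 in the border zone and 2, 0 and 0 in ischemic libraries, or 10.3, 7.30 and 14.9, then 4.79, 8.56 and 4.57, then 0.937, 0 and 0 RPM. Ischemic libraries were the 3 lowest. Apart from MIR208B the list held 52, 39 and 0 reads. MIR1 and MIR208B fell in ischemic against healthy myocardium and the other 3 did not pass the test. The list median log2 difference was -4.48, beside -1.78 over the 57 loci and 0.21 over all positions. MIR499 and MIR486-1 met the filter on low values only through healthy myocardium, so the list median is not independent of their selection. MIR499, which encodes miR-499 of a slow myosin gene, had 1, 0 and 4 healthy reads and none elsewhere (log2 -3.95 ± 1.61, limma adjusted p = 0.101). MIR486-1 had 4 reads in healthy replicate 3 and 1 in border zone replicate 2, and reads shared with its second position could have been split. Each of these last 2 loci held under 10 reads and is given to complete the list. Of the 8 heart muscle markers in the table, 4 fell in ischemic against healthy myocardium, with a median log2 difference of -1.66 over the 8. NPPA, the gene of the wall-stress hormone ANP, had 1.29 ± 0.612 RPKM in healthy and 6.22 ± 5.46 in ischemic myocardium and did not pass. ACTN2, which encodes the Z-disc protein alpha-actinin, went from 21.9 ± 4.40 to 2.87 ± 1.40 RPKM (log2 -2.97 ± 0.36, limma adjusted p = 0.00141).

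**Figure D5:**
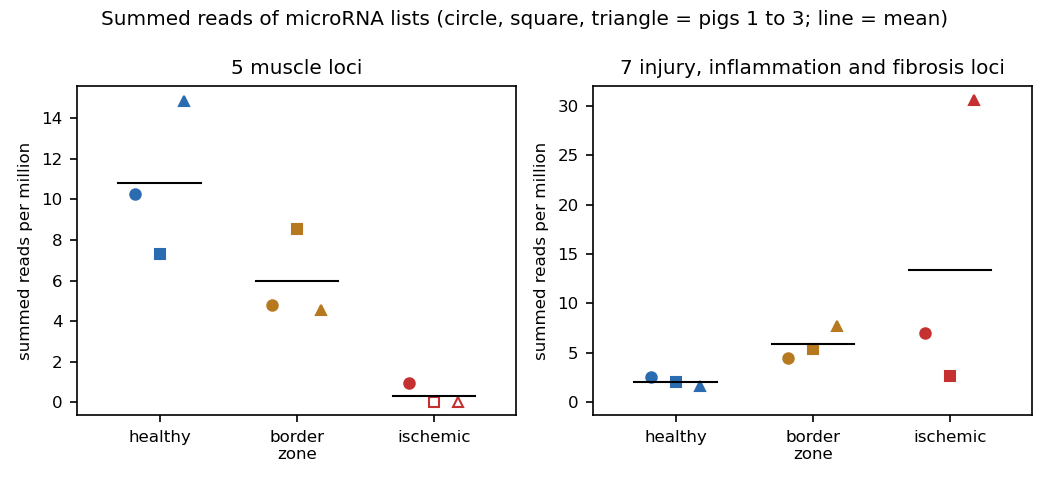
Summed RPM of the 5 muscle loci and of the 7 injury, inflammation and fibrosis loci (vertical axes) in the 9 libraries by group, with pigs 1 to 3 as circle, square and triangle and a line at the mean. Muscle loci are at 0 to 0.937 in ischemic libraries against 7.30 to 14.9 in healthy ones, and injury loci range from 2.63 to 30.6 in ischemic libraries.

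The list of injury, inflammation and fibrosis loci held 7 members, MIR21, MIR29A, MIR29B-1, MIR29C, MIR142, MIR155 and MIR199A-2, of 12 positions in the table. MIR222, MIR34C-1, MIR146B, MIR214 and a second, unplaced position of MIR155 held no read. The 7 took 7, 7 and 11 healthy, 16, 38 and 17 border zone and 15, 3 and 27 ischemic reads, that is 1.68 to 2.56, 4.51 to 7.77 and 2.63 to 30.6 RPM. Border zone libraries lay above all healthy ones. The ischemic ones did so narrowly: the lowest, replicate 2 at 2.63 RPM, rested on 3 reads, all at MIR29B-1, beside 2.56 RPM in the highest healthy library. MIR29B-1 rose and MIR29C fell in ischemic against healthy myocardium, and no member passed in the other 2 comparisons. MIR142, the locus of the blood-cell microRNA miR-142 (NR_038555, chr12:36203916-36203995), held no healthy read, 5, 1 and 4 border zone and 1, 0 and 3 ischemic reads. Its pooled rate was at least 3.32-fold higher in the border zone and at least 4.07-fold higher in ischemic than in healthy myocardium, with log2 differences of 6.53 ± 2.01 and 4.89 ± 2.01 that did not pass (limma, adjusted p = 0.112 and 0.106). Without healthy replicate 3 the bounds were 1.61-fold and 1.97-fold, with 10 border zone and 4 ischemic reads taken as exact. The first was 6.63-fold without border zone replicate 2, and no ischemic bound could be given without ischemic replicate 1 or 3. Both differences passed without ischemic replicate 2, which held no MIR142 read (limma, adjusted p = 0.017 for border zone and 0.00645 for ischemic). Leukocyte markers, given above, were higher in the same groups. CD14, a monocyte receptor, had 0.714 ± 0.550, 6.71 ± 2.80 and 14.4 ± 1.03 RPKM (mean ± SD, n = 3 each). MIR155, a microRNA of immune cells, held 1, 1 and 2 reads by group, all from pig 1. MIR199A-2 had 0, 0 and 6 healthy, 2, 0 and 3 border zone and no ischemic reads, and no difference passed.

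The vascular list had 5 members with 32, 33 and 8 reads by group, and the list of other loci abundant in heart had 8 with 39, 36 and 16 reads. Per library the vascular list took 2.30 to 2.93, 1.86 to 5.03 and 1.41 to 3.395 RPM by group. The heart list took 1.75 to 3.66, 2.74 to 2.855 and 2.81 to 5.26 RPM. Healthy and ischemic ranges overlapped in both lists. No member of either passed the test in any of the 3 comparisons with all 9 libraries. MIR145, a hallmark of smooth muscle, held 1, 3 and 2 healthy, 5, 5 and 4 border zone and 0, 2 and 3 ischemic reads, with pooled ratios to healthy of 2.32 (exact 95% interval 0.839 to 7.38) and 2.54 (0.614 to 10.0). The second ratio was 5.22 (1.26 to 20.5) without ischemic replicate 1, where the difference also passed the test (limma, adjusted p = 0.0337), and 1.29 (0.128 to 7.22) without ischemic replicate 3. Its neighbour MIR143, 1389 bp away, added 6 healthy and 3 border zone reads, and the pair held 12, 17 and 5. The ischemic to healthy ratio of the pair was 1.27 (0.351 to 3.88). MIR27A, known from endothelium, held 4, 9 and 0 reads, and its difference of ischemic from border zone did not pass (limma, adjusted p = 0.171). At the border zone rate the ischemic libraries would have held 2.94 MIR27A reads, so no bound on the ischemic rate could be given. Of the let-7 family, known as regulators of differentiation, MIRLET7I held 4, 14 and 4 reads, MIRLET7C 5, 7 and 4, MIRLET7G 6, 3 and 5 and MIRLET7A-1 7, 4 and 2 in healthy, border zone and ischemic myocardium. Their pooled ischemic to healthy ratios were 3.05, 2.44, 2.54 and 0.872, and every exact 95% interval spanned 1.

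MIR23B, MIR27B and MIR24-2 lie within 780 bp on the minus strand of chromosome 10 and held 41, 34 and 4 reads together. The ischemic to healthy ratio of the 3 was 0.298 (exact 95% interval 0.0774 to 0.822), or 0.611 (0.159 to 1.69) without ischemic replicate 1. All 4 ischemic reads came from replicate 3, and without it the 3 were at least 3.53-fold lower. Of the single hairpins MIR27B held 15, 17 and 1, MIR24-2 16, 7 and 0 and MIR23B 10, 10 and 3 reads, and none passed the test. Hairpins that neighbour each other did not share reads evenly: healthy replicate 1 held 9 reads at MIR27B, 3 at MIR24-2 and 0 at MIR23B, whose starts lie 234 to 780 bp apart. In all, 15 of the 57 loci had another within 10 kb. MIR99A with MIRLET7C held 11, 13 and 6 reads and MIR100 with MIRLET7A-1 14, 7 and 2. The ischemic to healthy ratios of these pairs were 1.66 (exact 95% interval 0.505 to 4.91) and 0.436 (0.0481 to 1.90). MIR19A with MIR19B-1, of the miR-17 to miR-92 cluster, held 2, 0 and 6, all 6 in ischemic replicate 1, while MIR18A and MIR92A-1 beside them held no read.

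Neither of the 2 loci with the most reads passed a test. MIR320 (NR_035382, chr14:6954934-6955013, minus strand) held 17, 30 and 60 healthy, 30, 52 and 12 border zone and 26, 22 and 0 ischemic reads. Its level was 102 ± 20.2 RPKM in healthy, 90.1 ± 19.1 in the border zone and 133 ± 123 in ischemic myocardium (mean ± SD, n = 3 each). The ischemic spread ran from 0 in replicate 3 to 244 RPKM in replicate 2. The pooled ischemic to healthy ratio was 1.37 (exact 95% interval 0.953 to 1.94), or 1.74 (1.21 to 2.46) without ischemic replicate 3, and no comparison passed (limma, adjusted p = 0.477 to 0.982). miR-320 is known for a hairpin made directly by capped transcription at its start site.

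NR_038586 (chr5:89608829-89608941, minus strand) was the only member with reads in all 9 libraries. It lies in SLC25A3, the mitochondrial phosphate carrier gene, on the same strand, and without a symbol it is not named as a microRNA here. It held 17, 47 and 57 healthy, 5, 63 and 12 border zone and 7, 11 and 3 ischemic reads. Its share of the SLC25A3 reads was 8.97% in healthy (exact 95% interval 7.50 to 10.6), 7.36% in border zone (5.88 to 9.08) and 9.77% in ischemic myocardium (6.15 to 14.5), and the ratio of its RPKM to that of its host gave exact permutation p values of 0.8, 0.6 and 0.6. Its pooled rate in ischemic was 0.530 of that in healthy myocardium (0.316 to 0.846) and that of its host 0.486. Without ischemic replicate 2 the first was 0.348 (0.163 to 0.661), and its interval reached past 1 without ischemic replicate 1 or healthy replicate 2. NR_038591, the other position without a symbol, held 30, 18 and 6 reads and passed no test. Its pooled ischemic to healthy ratio was 0.610 (0.208 to 1.49). The remaining hosts on the same strand, HNRNPK with MIR7-2, ZRANB2 with MIR186 and CCPG1 with MIR628, differed by -0.11 to 0.46 on the log2 scale across the 3 comparisons, none passing.

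Of the genes that make and use microRNAs, 8 of 29 fixed symbols were in the table and 5 were tested. AGO2, the Argonaute that can cut its targets, rose in ischemic against healthy myocardium from 0.865 ± 0.134 to 2.09 ± 0.706 RPKM (log2 1.13 ± 0.28, limma adjusted p = 0.0207). The other 4 did not pass: DGCR8 stood at 1.43 ± 0.286 and 2.83 ± 1.10 RPKM (log2 0.88 ± 0.31, limma adjusted p = 0.0672), DICER1 at 1.36 ± 0.194 and 1.38 ± 0.479, and AGO3 and AGO4 differed by -0.39 and -0.29 on the log2 scale. None of the 5 passed in the other 2 comparisons.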

How the data were processed

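Nascent RNA of 9 libraries was aligned by the authors to susScr3 with Bowtie, per the submitters' processing notes. The deposited table gives RPKM over each listed span, per the file headers. The counting program, strand setting and treatment of duplicate and multiply placed reads are, in the sources used here, not given. RPKM times span times library total gave whole reads, within 0.01 reads, for 100% of 28910 nonzero values. Names came from RefSeq tables, with Sscrofa11.1 used for names only. Coordinates are susScr3, as listed.

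Positions averaging 0.5 RPKM or more (2384 of 4882) were fitted as log2(RPKM + 0.1) with limma 3.58.1 in R 4.3.3 (trend and robust settings, 3 groups, 2-sided, Benjamini-Hochberg over all positions, threshold 0.05). A check on simulated data placed changes only at positions with more reads than any microRNA locus held. It therefore does not cover changes at these loci. Group reads were pooled and compared by exact 95% intervals, which cover counting error only, as does the floor of 3 reads. A bound from the floor takes the reads of the other group as exact. Shares are exact Clopper-Pearson intervals. Other steps used Python 3.11.15 with scipy 1.17.1, pandas 2.3.3, numpy 2.4.6 and, for plots, matplotlib 3.10.9.

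Replicate numbers pair samples, since same-numbered libraries come from the same pig per the labels. Deviations from group means correlated at -0.04 to 0.18 within a pig and at -0.16 to 0.08 between pigs. Within a pig, the border zone to ischemic values were 0.13 to 0.18, above every value between pigs. The main fit has no block.

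Members and lists were chosen with earlier results of these data known. Named loci were MIR1, MIR133A-1, MIR208B, MIR21, every MIR29 locus, loci passing the test, the 10 with the most reads, and list members with at least 10 reads, with loci nearby. Alternatives were pseudocounts of 1 and 5 RPKM, no filter, a filter at 2 RPKM, the same median per library, pig as a block, leaving out each library and, added after the data were seen, limma-voom.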

Additional observations from a re-analysis of the deposited data

How the results depend on the processing

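Depth limits these loci: no read over the ischemic group still allows 0.721 RPM, against 0.236 in healthy and 0.235 in border zone myocardium. In ischemic against healthy, 5 loci passed; the count ran from 4 to 7 without 1 library and from 4 to 6 under the other settings. MIR1, MIR208B and MIR29B-1 passed in every setting run, and MIR29C in all but limma-voom. In border zone against healthy, 1 locus passed, 0 with a pseudocount of 5 RPKM and 1 to 2 without 1 library; limma-voom also gave 1, but MIR21 in place of MIR103-2. In ischemic against border zone, 2 passed, 0 with a pseudocount of 1 RPKM, 1 with a pseudocount of 5 RPKM, 1 without a filter, 1 with limma-voom, and 0 to 3 without 1 library. MIR1 lost its call there with a pseudocount of 1 RPKM (adjusted p = 0.11), 5 RPKM (0.27), without a filter (0.0576) and with limma-voom (0.43). With pig as a replicate block the counts were 5, 1 and 2, and the block changed no other call of a microRNA locus. Without 1 library, several values that had not passed changed direction: border zone against healthy MIR133A-1 (log2 -2.60 to 1.69), MIR29A (-1.74 to 2.22) and MIR219A (-3.63 to 0.56), and ischemic against border zone MIR21 (log2 -4.47 to 1.10, pooled ratio 0.362 to 2.64). The pooled border zone to healthy ratios of MIR1 (0.13 to 1.26) and MIR219A (0.401 to 1.47), whose full intervals span 1, crossed it too. The cause was not tested. A pair of planned count tests on the recovered reads was not run, since the deposited values are RPKM.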
